A study of Mus musculus with 6 samples.

Results

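REST (Rest in the mouse) is a zinc-finger repressor that binds a DNA motif called the RE1 element and keeps neuronal genes silent in cells that are not neurons. It recruits the Sin3 and CoREST complexes, both of which carry the histone deacetylases HDAC1 and HDAC2, and CoREST also brings the histone demethylase LSD1. Its targets include genes of the growing axon, of the synaptic vesicle and of the secretory granule. Panobinostat (PB) inhibits histone deacetylases, so the level of REST and of genes it represses was compared between PB-exposed and control ovaries.

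The genes described are Rest and 8 neuronal genes, Stmn2, Gap43, Tubb3, Syt1, Syt4, Snap25, Scg3 and Celsr3, chosen by gene name among the 35974 names in the count matrix. They have 36 transcripts of the 114412 deposited, and 18 of these held a count. RNA was sequenced from pooled E15.5 ovaries of C57BL/6J embryos, 3 control and 3 PB pools. Pregnant females received 5 mg/kg PB by oral gavage from E6.5 to E15.5, given per day in the sample annotation and every other day in the methods, and control females received DMSO and water. The extract protocol gives 4 ovaries per pool the series description 6 to 8, and the RNA-seq methods a minimum of 8. Each pool mixes germ cells, pregranulosa cells and all other ovarian cells, so fewer cells of a type and less RNA per cell cannot be told apart. The p-values measure the spread between these pools.

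The pools held between 97165644 and 125985399 counts. The germ cell marker Ddx4 was at 77.7 to 132 CPM (counts divided by the library size after TMM scaling) and the pregranulosa gene Fst at 143 to 168 CPM. The 8 germ cell markers summed to 664 CPM in control 2 and 562 CPM in PB 2, against 866 to 1016 CPM in the other pools. The part of this difference in the results below was not tested.

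The RE1 element was searched on both strands in the RefSeq promoter windows (GRCm38.p6, the same build as mm10), which run from 250 bases before to 50 bases after each gene start. The exact 17-base consensus was present in 21 of 32851 windows (0.0639%), and 330 windows held it with at most 1 mismatch. Of the 9 genes, Celsr3, Tubb3, Scg3 and Syt1 had a window. Celsr3, a cadherin of axon guidance, was the member with a match, with 1 mismatch, at chr9:108825918-108825938 on the plus strand, positions -127 to -107 from the gene start. Its 250 bases before the start, at chr9:108825795-108826044, are shown with the match in capitals.
Celsr3: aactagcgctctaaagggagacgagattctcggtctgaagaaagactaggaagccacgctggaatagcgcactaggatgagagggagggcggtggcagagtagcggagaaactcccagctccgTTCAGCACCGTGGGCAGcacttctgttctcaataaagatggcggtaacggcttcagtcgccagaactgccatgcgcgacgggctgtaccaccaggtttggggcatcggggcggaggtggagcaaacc

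Tubb3 had no such match, but its window held both RE1 half-sites, TCAGCACC (left) and GGACAGC (right), on the opposite strand. The left half-site was in 542 of all windows (1.65%) on either strand and is part of some RE1 matches. The right half-site was in 2155 windows (6.56%), and in Tubb3 it lies after the gene start, outside the bases shown. The left one starts at position -121, so on their strand the right half-site comes first, the reverse of the order in an RE1 match. The 250 bases before the Tubb3 start, at chr8:123411303-123411552 on the plus strand, are shown with the left half-site in capitals as it reads on the plus strand.
Tubb3: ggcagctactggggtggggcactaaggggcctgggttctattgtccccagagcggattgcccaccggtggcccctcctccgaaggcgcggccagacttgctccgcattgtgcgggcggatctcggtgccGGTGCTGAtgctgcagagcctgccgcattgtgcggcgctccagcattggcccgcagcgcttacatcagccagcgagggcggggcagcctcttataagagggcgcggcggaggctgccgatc

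For comparison, 4 RE1 matches of other known REST target genes are shown beside the Celsr3 site, each 5′ to 3′ on the strand of the match, with the 17 consensus bases in capitals. The Gria2 match lies in its promoter at chr3:80802989-80803009 (plus strand), and the other 3 lie in the first exon, within the 5′ UTR by GENCODE M21 (GRCm38), at chr2:25319014-25319034 for Grin1, chr3:89764454-89764474 for Chrnb2 (both minus strand) and chr2:109676045-109676065 for Bdnf (plus strand).
Celsr3: TTCAGCACCGTGGGCAGcact
Gria2: TTTAGCACCGCGGACAGcgct
Grin1: TTCAGCACCTCGGACAGcacc
Chrnb2: TTCAGCACCACGGACAGcgct
Bdnf: TTCAGCACCTTGGACAGagcc

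An exact match in an exon was found in 285 of 58797 protein-coding transcripts (0.485%), including 1 of the 9 genes, Syt4, and 6 of 28 other REST target genes. A match is a string of letters, and binding was not measured.

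All 9 genes passed the filter on low counts. With edgeR's quasi-likelihood test on gene sums, 0 of the 9 reached a fold change of at least 2 with an FDR of at most 0.05, the rule by which 4 of 19435 genes were called (0.0206%). None had an unadjusted p under 0.05, against 840 genes (4.32%), and DESeq2 also gave 0 of the 9 at both rules. Of the 8 neuronal genes, 7 had a log2 fold change above 0 and 1 below, with a median of 0.37. Over all genes the median was 0.0020, with 9849 of 19435 above 0. Without PB 3 the median of the 8 genes was 0.15, with 5 above 0, and without control 1 it was 0.23, with 7 above 0. Without each other pool it lay between 0.30 and 0.47, with 6 to 8 above 0. With all pools, the smallest unadjusted p among the 9 genes was 0.0657, for Tubb3 (edgeR), and all FDRs lay between 0.902 and 0.999.

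Rest was measured at 87.1, 85.1 and 84.0 CPM in control and at 82.9, 90.1 and 82.9 CPM in PB. The groups overlapped, and the highest pool was 1.09 times the lowest. Its log2 fold change of -0.0020 (SE 0.052) had a 95% interval from -0.12 to 0.12 (edgeR, FDR = 0.998).

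**Figure D1:**
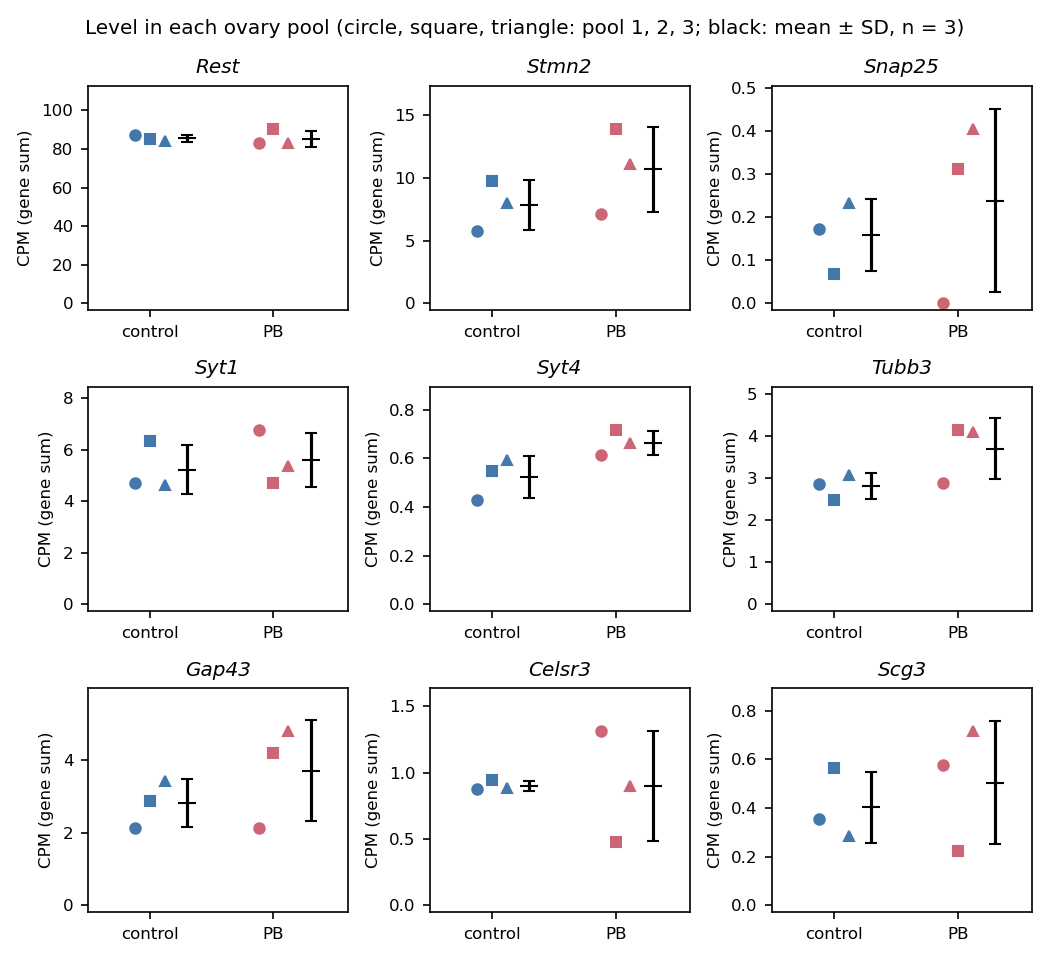
Level of each gene (CPM of the gene sum, each panel with its own axis) in the 3 control pools (blue) and 3 PB pools (red), with mean ± SD in black. Rest lies between 82.9 and 90.1 CPM in all pools, and only Syt4 has no overlap between the groups. Over all genes tested, every PB pool lay above every control pool in 5.1% and below in 5.61%.

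Levels were compared between genes in TPM, a unit that divides by transcript length. Rest had the highest mean, 31.2 TPM over the 6 pools, followed by Stmn2 at 7.37, Gap43 at 3.79, Tubb3 at 2.88 and Syt1 at 1.73 TPM. Syt4 followed at 0.232, Scg3 at 0.173, Snap25 at 0.125 and Celsr3 at 0.112 TPM. The Scg3 mean rests on PB 3, at 0.523 TPM against 0.0672 to 0.162 TPM in the other pools. Between neighbours in this order, the ranges over pools did not overlap for Rest and Stmn2 and for Syt1 and Syt4, and they overlapped for the other pairs.

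Rest has 2 transcripts in the deposited annotation. They lie on the plus strand of chromosome 5, between 77265494 and 77283697 (mm10). NM_011263.2 starts with an exon at 77265494-77265788 and XM_006534842.3 with one at 77265873-77266413, so their starts are 379 bases apart. Both share the exons at 77267932-77268823 and 77275234-77275317, and both contain the coding region that GENCODE places from 77267941 to 77282981. Their last exons end at different positions, 77283697 and 77282984, so they differ in untranslated sequence.

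NM_011263.2 held 76.6% of the Rest counts. It was at 63.1, 56.0 and 59.8 CPM in control and at 67.8, 66.8 and 70.7 CPM in PB. Its log2 fold change of 0.20 (SE 0.065) had an unadjusted p of 0.0275 and an FDR of 1.00 (edgeR on all transcripts). XM_006534842.3 was at 22.1, 27.6 and 22.2 CPM in control and at 13.3, 21.3 and 11.1 CPM in PB. Its log2 fold change was -0.65 (SE 0.29, unadjusted p = 0.0722, FDR = 1.00, edgeR).

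The share of Rest counts in XM_006534842.3 was 25.9%, 33.0% and 27.1% in control and 16.4%, 24.2% and 13.5% in PB. The widest of the 95% Wilson intervals ran from 26.1% to 28.1%, in control 3, and these cover counting error only. The mean was 28.7% ± 3.79 in control and 18.0% ± 5.52 in PB (SD, n = 3), with an exact two-sided permutation p of 0.1, the smallest that 3 against 3 pools can give. Among 7763 genes with at least 2 tested transcripts and a leading transcript at 10 to 90% of the counts, the share of the leading transcript did not overlap between the groups in 786 (10.1%). StringTie divides the reads of shared exons between transcripts, so these shares depend on that division. In TPM, Rest was at 31.1, 28.5 and 31.1 in control and at 32.1, 32.7 and 31.7 in PB, which do not overlap although the CPM do. Mean TPM in control and PB also rose for the corepressor genes Kdm5c (31.2 and 34.1), Ehmt2 (80.7 and 85.6) and Hdac2 (127 and 139). In TPM the groups of Kdm5c did not overlap either (29.2 to 33.1 in control, 33.4 to 34.5 in PB), while those of Ehmt2 and Hdac2 did. The share of all genes without overlap in TPM was not computed. The log2 fold changes of Kdm5c, Ehmt2 and Hdac2 from counts were 0.015, -0.021 and 0.016. The source of this difference between TPM and CPM was not tested.

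**Figure D2:**
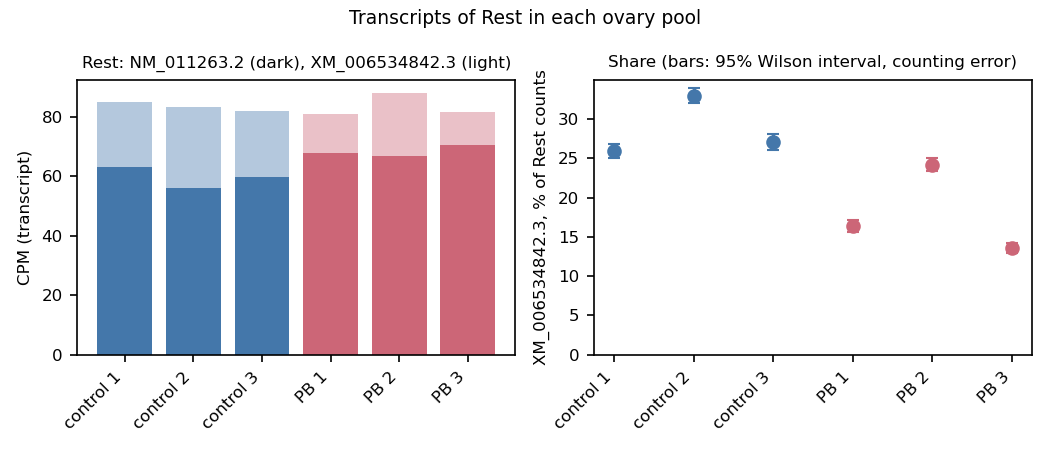
Left, CPM of the transcripts of Rest in each pool, NM_011263.2 dark and XM_006534842.3 light. Right, percent of Rest counts in XM_006534842.3 with 95% Wilson intervals, at 25.9 to 33.0% in control (blue) and 13.5 to 24.2% in PB (red).

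Of the 36 transcripts of the 9 genes, 10 were tested. With edgeR, 0 were called, against 17 of 51227 over all transcripts (0.0332%). NM_011263.2 was the 1 with an unadjusted p under 0.05, against 1738 over all transcripts (3.39%). The number was 0 without control 2, control 3, PB 1 or PB 3, and 2 without PB 2, the second being XM_006534842.3, where 5.25% of all transcripts tested lay under this p.

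The axonal genes Stmn2, Gap43 and Tubb3 are each represented by 1 transcript. Stmn2, on chromosome 3 from 8509527 to 8561604, encodes stathmin 2, a regulator of microtubules in growth cones. It was measured at 5.78, 9.71 and 8.02 CPM in control and at 7.12, 13.8 and 11.1 CPM in PB. The groups overlapped, with PB 2 and PB 3 above every control pool and PB 1 below control 2 and control 3. PB and control differed by a log2 fold change of 0.45 (SE 0.29, 95% interval -0.25 to 1.14, edgeR FDR = 0.902).

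Gap43, on chromosome 16 from 42248552 to 42340651, encodes a membrane protein of growth cones. It was at 2.14, 2.87 and 3.44 CPM in control and at 2.14, 4.20 and 4.79 CPM in PB. Control 1 and PB 1 were the lowest and nearly equal, and the log2 fold change was 0.40 (SE 0.33, 95% interval -0.38 to 1.17, edgeR FDR = 0.902).

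Tubb3, on chromosome 8 from 123411564 to 123422010, encodes the neuronal class III beta-tubulin. It was at 2.86, 2.47 and 3.08 CPM in control and at 2.87, 4.13 and 4.09 CPM in PB. PB 1 lay within the control range and the other PB pools above it. The log2 fold change was 0.40 (SE 0.18, 95% interval -0.034 to 0.84, edgeR FDR = 0.902). Tubulin genes are similar in sequence, and Tubb5 stood at 1523 to 1634 CPM in the same pools. Whether reads of one were assigned to the other was not tested.

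These values moved with the pools included. Without PB 1, all 3 genes had an unadjusted p under 0.05, as did 685 of 19887 genes (3.44%). EdgeR then gave a log2 fold change of 0.66 for Stmn2 (unadjusted p = 0.0300), 0.67 for Gap43 (unadjusted p = 0.0272) and 0.55 for Tubb3 (unadjusted p = 0.0143), each with an adjusted p of 0.991. The same fit gave -0.38 for Celsr3 and -0.063 for Syt1. In the other direction, Stmn2 was at a log2 fold change of 0.22 without PB 2 and 0.27 without control 1, and Gap43 at 0.17 without PB 3 and 0.23 without control 1. In each of the 5 fits that left out another pool, none of the 9 genes had an unadjusted p under 0.05. The share of all genes under this p was 12.5% without PB 2, 2.75% without PB 3, and 2.96%, 3.67% and 3.61% without control 1, control 2 and control 3.

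**Figure D3:**
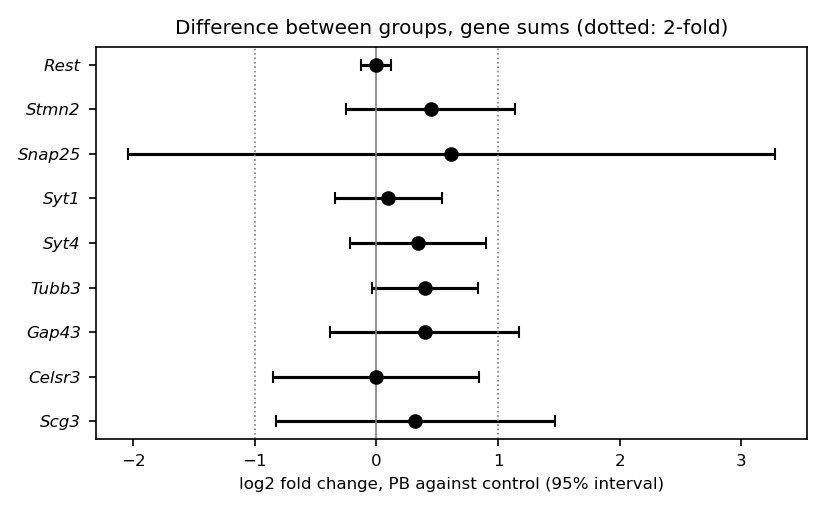
Log2 fold change (PB against control, edgeR) of each gene with its 95% interval. The Rest interval runs from -0.12 to 0.12, that of Snap25 from -2.04 to 3.27, and every interval includes 0.

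Syt1 and Syt4 encode synaptotagmins, membrane proteins of vesicles, and Syt1 is the calcium sensor of fast transmitter release. Syt1, on chromosome 10 from 108497650 to 109010978, was at 4.69, 6.32 and 4.64 CPM in control and at 6.74, 4.69 and 5.34 CPM in PB. PB 1 was the highest pool and control 3 the lowest, the groups overlapped, and the log2 fold change was 0.098 (SE 0.19, 95% interval -0.34 to 0.54, edgeR FDR = 0.935). Of its counts, 99.9% were in NM_009306.3.

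Syt4, on chromosome 18 from 31437808 to 31447415, was at 0.428, 0.549 and 0.595 CPM in control and at 0.615, 0.714 and 0.662 CPM in PB. Every PB pool was higher than every control pool, as in 991 of the 19435 genes tested (5.1%). In another 1090 genes (5.61%) every PB pool was lower. The exact two-sided permutation p for Syt4 was 0.1, the smallest this design allows. The log2 fold change was 0.34 (SE 0.24, 95% interval -0.22 to 0.90, edgeR FDR = 0.902), from 42 to 77 counts per pool.

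Snap25, a SNARE protein of vesicle fusion on chromosome 2 from 136713441 to 136782428, was near the floor. Its counts were 17, 8 and 22 in control and 0, 32 and 47 in PB, all in XM_017316761.1. PB 1 was the lowest pool and PB 2 and PB 3 the highest, and the 0 in PB 1 allows up to 3 counts (0.0307 CPM before TMM scaling). For Snap25, this gave a log2 fold change of 0.62 (SE 1.11, 95% interval -2.04 to 3.27, edgeR FDR = 0.935).

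Scg3, a granin of secretory granules on chromosome 9 from 75643366 to 75690555, was at 0.356, 0.566 and 0.287 CPM in control and at 0.575, 0.225 and 0.714 CPM in PB. PB 2 was the lowest pool and PB 3 the highest. All 83 counts of PB 3 were in NM_001164790.1, which had 0 counts in the other 5 pools. The log2 fold change of the gene sum was 0.32 (SE 0.48, 95% interval -0.82 to 1.47, edgeR FDR = 0.919).

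Celsr3, on chromosome 9 from 108826045 to 108852969, was at 0.875, 0.943 and 0.881 CPM in control and at 1.31, 0.479 and 0.903 CPM in PB. The control pools lay close together, with PB 1 above and PB 2 below them. Celsr3 had a log2 fold change of -0.0045 (SE 0.36, 95% interval -0.85 to 0.84, edgeR FDR = 0.999). Of its counts, 92.2% were in XR_001778787.1, a non-coding RefSeq model of the gene.

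Summed over the 8 neuronal genes, the level was 17.3, 23.5 and 21.2 CPM in control and 21.4, 28.6 and 28.0 CPM in PB. PB 1 lay within the control range and PB 2 and PB 3 above it. Markers of autonomic neurons, the nerve cells that supply internal organs, were also highest in PB 2 and PB 3. The 18 genes summed to 55.2, 60.8 and 64.8 CPM in control and to 61.6, 72.2 and 82.4 CPM in PB. Of these, 17 were tested, 15 had a log2 fold change above 0 with a median of 0.37, and 0 had an unadjusted p under 0.05 with edgeR or DESeq2, while edgeR gave 5 without PB 1, 2 without PB 2, 1 without PB 3, control 2 or control 3, and 0 without control 1. Their median fell to 0.16 without PB 3 and to 0.20 without control 1. The defining genes were low, with Th at 0 in PB 1 and up to 0.404 CPM and Dbh at 0 in control 1 and up to 1.01 CPM. The part of these cells in the levels of Stmn2, Gap43 and Tubb3 was not tested.

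The autonomic markers with the highest CPM were Map2, Hand2 and Nefm. Map2, a microtubule protein of dendrites, had a log2 fold change of 0.13 (SE 0.090), and Hand2, a transcription factor of sympathetic neurons that other cells also use, one of 0.16 (SE 0.10). Nefm, a neurofilament subunit, was at 4.08, 6.07 and 6.93 CPM in control and at 5.08, 9.65 and 10.8 CPM in PB, a log2 fold change of 0.58 (SE 0.32, edgeR FDR = 0.902).

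The 8 Schwann and glial markers summed to 18.9 to 23.6 CPM in control and 19.2 to 23.6 CPM in PB. Of these, 7 were tested, with a median log2 fold change of -0.013 and 0 with an unadjusted p under 0.05 (edgeR and DESeq2), and Erbb3 was among the highest. The median was 0.47 without control 2 and 0.26 without PB 1, each with 1 gene under this p by edgeR. Without each other pool it lay between -0.092 and 0.17, with 0 genes under this p. The 6 chromaffin cell markers share Th and Dbh with the neuronal list, and Chga and Chgb with the other REST targets below. They summed to 4.26 to 4.75 CPM in control and 4.11 to 8.32 CPM in PB. All 6 had a log2 fold change above 0 with a median of 0.56. When 1 pool was left out, the median lay between 0.23 (without PB 2) and 0.89 (without PB 1). The highest genes were Slc18a1, Chga and Chgb. None had an unadjusted p under 0.05 (edgeR and DESeq2), while edgeR gave 2 without PB 1 and 1 without control 3.

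**Figure D4:**
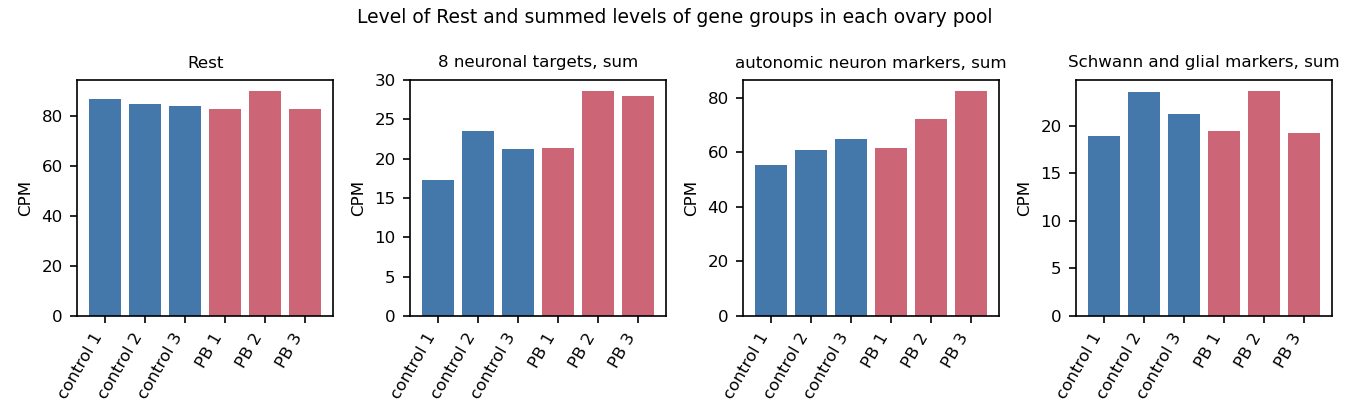
CPM of Rest and summed CPM of the 8 neuronal genes, of 18 autonomic neuron markers and of 8 Schwann and glial markers in each control (blue) and PB (red) pool. The neuronal genes run from 17.3 to 28.6 CPM and the autonomic markers from 55.2 to 82.4 CPM, while Rest stays between 82.9 and 90.1 CPM.

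Genes for corepressors of REST and for its turnover were read from a list of 23. All 23 were tested and 0 were called, with a median log2 fold change of 0.016. Of the 23, 3 had an unadjusted p under 0.05, against 4.32% of all genes. Among them, Rcor2, a CoREST subunit, had a log2 fold change of -0.17 (SE 0.067, unadjusted p = 0.0363) and Cdyl, a chromodomain corepressor, one of -0.13 (SE 0.050, unadjusted p = 0.0397), and both had an edgeR FDR of 0.902. The number at this p was 0 without control 1, 1 without control 3 and 5 without PB 2, the fit in which 12.5% of all genes lay under it.

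The most abundant of these genes were Kdm5c, an H3K4 demethylase, Ehmt2, an H3K9 methyltransferase, and Hdac2, with log2 fold changes of 0.015, -0.021 and 0.016. Hdac2 was at 174, 173 and 177 CPM in control and at 175, 173 and 182 CPM in PB. Ctdsp2, a phosphatase named after its values were seen, was at 5.97, 3.78 and 3.48 CPM in control and at 8.44, 5.97 and 116 CPM in PB. Its log2 fold change of 3.30 (SE 1.37, edgeR FDR = 0.902) rests on PB 3.

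Other genes known as REST targets were read from a list of 28, of which 23 were tested, 27 had a count and Nppa had none. None was called, and the median log2 fold change was 0.069, with 14 above 0 and 9 below. With edgeR, 1 had an unadjusted p under 0.05, against 4.32% of all genes. DESeq2 also gave 1. That gene was Chrnb2, a nicotinic receptor subunit whose first exon holds the RE1 match shown above. It was at 0.733, 0.686 and 0.839 CPM in control and at 0.998, 1.09 and 1.16 CPM in PB. All PB pools were higher, and the log2 fold change was 0.52 (SE 0.19, unadjusted p = 0.0298, edgeR FDR = 0.902). Of the 23 tested, 2 had every PB pool above every control pool, Chrnb2 and Rundc3a (log2 fold change 0.25), and 3 had every PB pool below, Syp (-0.48), Scn2a1 (-0.21) and Stx1a (-0.18), named after their values were seen. Over all genes these shares were 5.1% and 5.61%.

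The most abundant of these targets were Chrm4, a muscarinic receptor, Mapk8ip1, a kinase scaffold, and Calb1, a calcium-binding protein. Their log2 fold changes were -0.050, 0.038 and 0.14, and their groups overlapped. The other genes whose RE1 matches are shown were low, Gria2 at 0.223 to 0.744 CPM, Grin1 at 0.196 to 0.425 CPM and Bdnf at 0.222 to 0.470 CPM, with overlap in each.

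Relatives of the 9 genes from the same families were counted in the same way. Of 35, 32 were tested and 0 were called, with a median log2 fold change of 0.055. Of the 32, 3 had an unadjusted p under 0.05, against 4.32% of all genes. Tubb1, a beta-tubulin of the platelet lineage, was at 2.63, 2.31 and 1.86 CPM in control and at 0.897, 0.920 and 1.49 CPM in PB, a log2 fold change of -1.04 (SE 0.26, unadjusted p = 0.00533). Tubb4b had one of -0.16 (unadjusted p = 0.0408) and Snap29, a SNARE protein of membrane trafficking, one of 0.15 (unadjusted p = 0.0154), all with an edgeR FDR of 0.902. The highest of the list, Tubb5, Tubb4b and Stmn1, were at 1523 to 1634, 243 to 303 and 244 to 278 CPM.

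Markers of the other cell types had no gene called, with edgeR or DESeq2. With edgeR, 1 of the 8 germ cell markers had an unadjusted p under 0.05, against 4.32% of all genes. This was Pou5f1, a pluripotency factor, at 18.3 to 30.7 CPM in control and 17.0 to 18.6 CPM in PB. Its log2 fold change was -0.58 (unadjusted p = 0.0270, edgeR FDR = 0.902). DESeq2 gave 2 germ cell markers under this p, and edgeR gave 0 without control 1, control 3, PB 1 or PB 3, 2 without control 2 and 3 without PB 2. The pregranulosa, mesonephric, adrenal and endothelial or blood lists had 0 with both tools, with median log2 fold changes of -0.012, -0.018, 0.027 and -0.13. EdgeR gave 1 pregranulosa gene under this p without PB 3. It gave 2 endothelial or blood genes without control 3 and 1 without PB 2. The endothelial and blood markers summed to 4803 to 14036 CPM in control and 8608 to 9053 CPM in PB.

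As a description over 6 pools, with 14777 genes of at least 1 CPM compared, the genes most like Rest in log2 CPM were Slco3a1, Esr2 and 1810014B01Rik (Pearson r = 0.990, 0.987 and 0.986). Those most like the mean of the 8 neuronal genes were F2r, Fbln2 and Ilf2 (r = 0.988, 0.988 and 0.982). The same 6 pools and their depths underlie all of these values.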

How the data were processed

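The authors sequenced RNA from 6 ovary pools, aligned reads to mm10 with HISAT2 2.1.0, assembled transcripts with StringTie 1.3.5 on RefSeq and deposited raw counts per transcript. The deposited comparison table (DESeq2 1.30.0, per the submitters' processing notes) holds fold changes, p-values and 6 columns of normalized values, none of which were used; gene names came from it. Counts were summed per gene name and tested with edgeR 4.0.16 in R 4.3.3 (TMM, filterByExpr with min.count 10 and min.total.count 15, quasi-likelihood F-test, Benjamini-Hochberg adjustment over all genes or transcripts). The fits were tested on simulated data.

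The members and lists were chosen with earlier results of these data known. The text names all 9 members, and of each list the 3 genes with the highest CPM and those with an unadjusted p under 0.05. Member transcripts with at least 10% of a gene's counts were eligible, and the 3 genes with the highest Pearson r to Rest and to the neuronal mean were added. Some genes that this rule selects are not reported here. Alternatives were DESeq2 1.42.0, its size factors, other filters, known transcripts, StringTie loci, a replicate block, CPM without TMM and leaving out each pool. The gene biological coefficient of variation was 20.9% and that of transcripts 98.4%. A floor of 3 counts was 0.0257 to 0.0319 CPM for gene sums. RefSeq promoters and GENCODE M21 were on GRCm38.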

Additional observations from a re-analysis of the deposited data

How the results depend on the processing

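The number of the 9 genes called stayed at 0 under every alternative run. The number with an unadjusted p under 0.05 was 0 to 3 when 1 pool was left out, and the 3 arose without PB 1. With the replicate number as a block it was 1, Stmn2 (log2 fold change 0.43, edgeR unadjusted p = 0.00462, FDR = 0.793), and for transcripts it was 2. The sample titles do not say that equal numbers share a litter, a day or a mouse, so the numbers were not taken as pairs. The same-numbered pools correlated at 0.079, 0.22 and 0.043 in their deviations from the group means, and the other pairs at -0.22 to 0.15. Not every pool correlated best with its own number. With 3 pools per group, these values cannot decide whether the numbers are pairs. For transcripts the number was 0 to 2 when 1 pool was left out. Of 116 log2 fold changes of the 9 genes under alternatives, 4 had an unadjusted p under 0.05 and 8 differed in sign, of Rest, Snap25, Syt1, Celsr3 and Scg3. The stricter filter gave no value for Snap25. The spread between 3 pools limits Snap25, Scg3 and Celsr3 most.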
